A study of Mus musculus with 8 samples.

Results

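The 10 genes described here form the core of the mammalian circadian clock and were the rows named Clock, Arntl, Per1, Per2, Per3, Cry1, Cry2, Nr1d1, Nr1d2 and Dbp in an expression table of 19688 genes. All 10 had a row. The table holds FPKM values (fragments scaled to transcript length and to the library's mapped fragments) from mouse blastocysts, the preimplantation embryo with an outer trophectoderm and an inner cell mass. Melatonin-vitrified blastocysts (3 libraries) were frozen by vitrification, an ice-free rapid cooling, with 1e-10 M melatonin in the media for vitrifying and for thawing. Vitrified blastocysts (3 libraries) were vitrified without it, and fresh blastocysts (2 libraries) were never vitrified. Mouse strain, embryos pooled per library and the time of day of collection are not stated in the labels. The labels number the libraries as separate biosamples but do not say whether they came from separate animals or cultures, so the p-values below measure only the spread between these libraries. The design text says Smart-seq2, which amplifies full-length cDNA from few cells, but the library protocol describes poly(A) selection and strand-marked libraries from TRIzol-extracted cell lines, and which was used was not settled.

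In the clock, CLOCK and ARNTL (also called BMAL1) bind DNA as a pair at E-box sequences and switch on the Period and Cryptochrome genes, whose proteins return to the nucleus and repress that pair. The same pair drives Nr1d1 and Nr1d2, which encode REV-ERB nuclear receptors that repress Arntl through ROR elements, and Dbp, a D-box transcription factor that carries the rhythm to other genes. Melatonin is the night hormone of the pineal gland and is also an antioxidant. Clock gene transcripts are known from preimplantation mouse embryos, and a self-sustained rhythm forms later in development.

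Such elements were searched for only close to transcript starts and only as exact letters. RefSeq windows of GRCm38.p6 (250 bases before to 50 bases after a transcript start) were available for 9 of the 10 genes, 13 windows in all, and were searched on both strands for E-boxes (CACGTG), D-boxes (TTATGTAA or TTACGTAA), ROR elements (TAGGTCA or TGGGTCA) and cyclic AMP response elements (TGACGTCA). Some windows of Arntl and of Clock overlap, so the 13 are not separate promoters. Of the 13 windows, 2 held an E-box, 1 a D-box and 1 a ROR element, against 7.15%, 1.06% and 6.45% of the 32851 mouse windows in the table. None held a cyclic AMP response element, against 1.79% of all windows. The 4 windows with an element are printed 5′ to 3′ on the gene's strand with the element in capitals. They are an E-box that begins 60 bases before the Cry1 start (chr10:85185005-85185304, minus strand), an E-box 166 bases before a Per1 start (chr11:69098699-69098998, plus strand), D-boxes 205 and 158 bases before the Per3 start (chr4:151044616-151044915, minus strand) and a ROR element that begins 30 bases past an Arntl start (chr7:113207261-113207560, plus strand).
Cry1: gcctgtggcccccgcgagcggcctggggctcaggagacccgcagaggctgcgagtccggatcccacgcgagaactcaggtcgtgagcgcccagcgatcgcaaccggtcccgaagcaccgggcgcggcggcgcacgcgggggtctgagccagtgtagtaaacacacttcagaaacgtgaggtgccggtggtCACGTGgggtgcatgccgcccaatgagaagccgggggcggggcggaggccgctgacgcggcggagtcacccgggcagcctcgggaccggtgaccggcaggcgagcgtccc
Per1: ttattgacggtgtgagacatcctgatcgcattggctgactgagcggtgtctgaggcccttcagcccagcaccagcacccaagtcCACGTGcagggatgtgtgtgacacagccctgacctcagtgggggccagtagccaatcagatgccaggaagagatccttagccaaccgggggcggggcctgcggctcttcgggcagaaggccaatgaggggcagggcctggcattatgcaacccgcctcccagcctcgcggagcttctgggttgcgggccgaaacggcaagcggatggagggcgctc
Per3: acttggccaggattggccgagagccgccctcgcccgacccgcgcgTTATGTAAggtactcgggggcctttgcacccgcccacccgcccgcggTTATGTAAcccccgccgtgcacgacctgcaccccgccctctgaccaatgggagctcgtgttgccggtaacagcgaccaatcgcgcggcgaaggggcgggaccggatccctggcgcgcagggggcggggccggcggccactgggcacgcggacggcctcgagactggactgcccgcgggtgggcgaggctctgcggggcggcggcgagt
Arntl: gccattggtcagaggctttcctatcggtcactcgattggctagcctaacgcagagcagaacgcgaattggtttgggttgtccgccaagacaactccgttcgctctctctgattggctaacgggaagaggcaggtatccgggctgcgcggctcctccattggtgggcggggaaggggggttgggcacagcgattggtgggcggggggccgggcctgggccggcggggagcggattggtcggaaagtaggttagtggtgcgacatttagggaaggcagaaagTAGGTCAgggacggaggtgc
A match to these letters is a description of the window and not a measured binding site.

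The clock genes were expressed at low to moderate levels, and none of the 6 that passed the filter of 1 FPKM in at least 2 libraries passed limma at an adjusted p below 0.05 in any of the 3 comparisons. Of the 10755 genes tested, 0.139% passed for melatonin-vitrified against vitrified, 0% for melatonin-vitrified against fresh and 0.865% for vitrified against fresh. Averaged over the 8 libraries, Cry1 was the highest at 8.36 FPKM, followed by Arntl at 5.91 FPKM, Cry2 at 2.03 FPKM and Nr1d1 at 1.94 FPKM. Nr1d2 averaged 0.823 FPKM, Dbp 0.642 FPKM and Clock 0.36 FPKM. The Period genes were lowest, at 0.105 FPKM for Per1, 0.0891 FPKM for Per3 and 0.0727 FPKM for Per2. Cry1 stood at percentile 77.1 of all genes in the table by mean FPKM and Arntl at 72.9. The ranges of every pair of neighbours in this order overlapped: Cry1 exceeded Arntl in 6 of 8 libraries, while Cry2 exceeded Nr1d1 in 3 of 8 and Per1 exceeded Per3 in 4 of 8. Arntl exceeded Cry2, and Clock exceeded Per1, in 8 of 8 libraries.

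**Figure D1:**
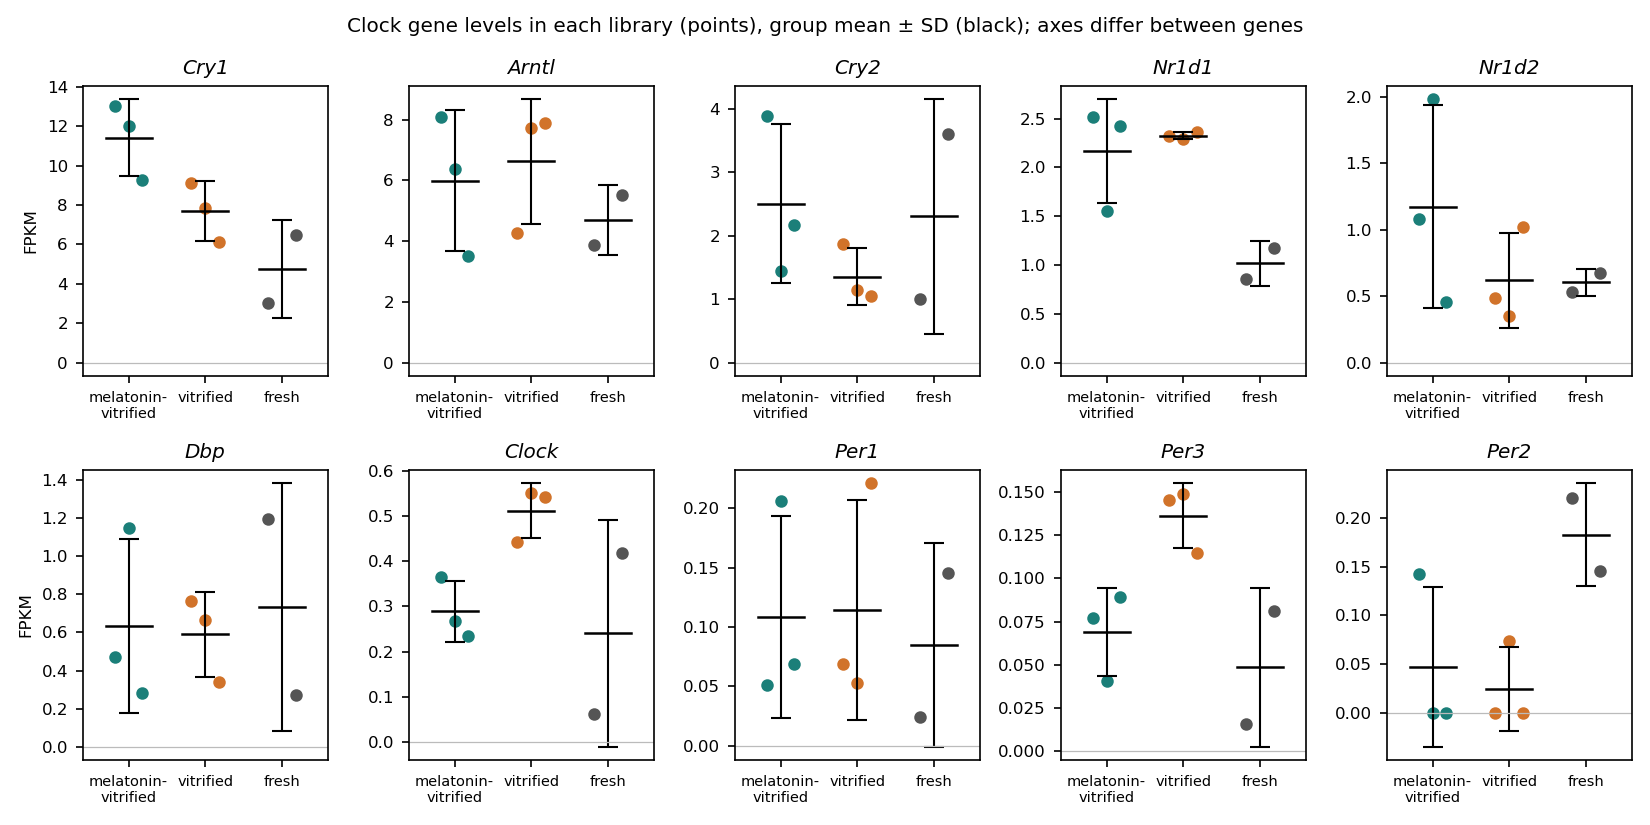
FPKM of each clock gene (vertical axes differ between genes) in melatonin-vitrified, vitrified and fresh blastocysts, with 1 point per library and the group mean ± SD in black (n = 3, 3 and 2). Cry1 lies between 9.25 and 13.0 FPKM in melatonin-vitrified libraries, between 6.10 and 9.12 FPKM in vitrified libraries and at 3.02 and 6.50 FPKM in fresh libraries, and the Period genes lie below 0.25 FPKM.

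The libraries were modest in depth and not equally alike. The steps between low FPKM values put them at about 5883000 to 7140000 fragments for melatonin-vitrified, 6864000 to 8208000 for vitrified, and 9994000 and 5820000 for the fresh replicates 1 and 2. Fresh replicate 1 stood apart from the rest on the first principal component (29.1% of the variance), at 52.5 against 14.2 for fresh replicate 2 and -18.4 to -3.29 for the 6 vitrified libraries with or without melatonin. Its mitochondrial transcripts made up 11.3% of summed FPKM, against 4.24% to 6.56% elsewhere, and its Malat1, a nuclear noncoding RNA, was at 11.4 FPKM, against 70.3 to 149 FPKM. Vitrified libraries had 15749 to 16400 genes above 0, melatonin-vitrified libraries 14544 to 14889, and fresh libraries 14260 and 14741. Blastocyst markers were present in every library: the 6 trophectoderm markers summed to 6600 to 11360 FPKM. The 4 epiblast markers summed to 73.2 to 87.8 FPKM in melatonin-vitrified, 78.2 to 90.6 FPKM in vitrified, and 17.9 and 46.1 FPKM in fresh libraries 1 and 2; the 4 primitive endoderm markers summed to 25.8 to 32.9, 45.2 to 47.1, and 13.4 and 35.9 FPKM in the same order. Of other cell types, cumulus markers (3 of 9 with a row) summed to at most 1.71 FPKM, fibroblast markers (3 of 6) to at most 0.336 FPKM, sperm markers (4 of 6) to at most 2.79 FPKM, and blood markers (2 of 4) to between 1.45 and 7.13 FPKM, mostly from Cd68. Y-linked genes summed to 0 FPKM in vitrified replicates 2 and 3 and to 20.9 to 36.8 FPKM in the other 6 libraries. In whole embryos, fewer cells of a type and less RNA per cell cannot be told apart, and the part that lineage make-up, embryo sex or the depth of detection had in the values below was not tested.

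Cry1 (ENSMUSG00000020038, mm10 chr10:85131700-85185064, minus strand), a cryptochrome and strong repressor of CLOCK and ARNTL, had the highest melatonin-vitrified minus fresh difference of the 6 tested genes. It was at 13.0, 12.0 and 9.25 FPKM in melatonin-vitrified libraries, at 9.12, 7.83 and 6.10 FPKM in vitrified libraries, and at 3.02 and 6.50 FPKM in fresh libraries. Every melatonin-vitrified value lay above every vitrified and every fresh value, while vitrified replicate 3 lay below fresh replicate 2. Group means were 11.4 ± 1.94 FPKM (SD, n = 3), 7.69 ± 1.51 FPKM (n = 3) and 4.76 ± 2.46 FPKM (n = 2) for melatonin-vitrified, vitrified and fresh blastocysts. The melatonin-vitrified level exceeded the fresh one by 1.17 ± 0.29 on the log2(FPKM + 1) scale (SE; 95% interval, not adjusted over genes, 0.52 to 1.82), a 2.24-fold difference on that scale, with a limma adjusted p of 0.141. Against vitrified blastocysts the melatonin-vitrified difference was 0.52 ± 0.26 (limma adjusted p = 0.381), and the vitrified minus fresh difference was 0.65 ± 0.29 (adjusted p = 0.25). The size rested on which fresh library was used: with fresh replicate 1 alone the melatonin-vitrified minus fresh difference was 1.62 and passed limma at an adjusted p of 0.025, in a fit where 565 genes (5.25%) passed, and with fresh replicate 2 alone it was 0.72 with an adjusted p of 0.434. The vitrified minus fresh difference was 1.10 with fresh replicate 1 alone and 0.20 with fresh replicate 2 alone.

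Cry2 (ENSMUSG00000068742, mm10 chr2:92403646-92434043, minus strand), the second cryptochrome and repressor, overlapped across all groups. It was at 3.89, 1.45 and 2.17 FPKM in melatonin-vitrified libraries, at 1.88, 1.14 and 1.06 FPKM in vitrified libraries, and at 1.00 and 3.61 FPKM in fresh libraries. The 2 fresh libraries held the lowest and the second highest of the 8 values, and every pair of groups overlapped. On the log2 scale the melatonin-vitrified minus vitrified difference was 0.53 ± 0.35 (95% interval -0.27 to 1.32; limma adjusted p = 0.51) and the vitrified minus fresh difference was -0.38 ± 0.40 (adjusted p = 0.624). The first of these was 0.26 without melatonin-vitrified replicate 1, and the second was 0.22 without fresh replicate 2 and -0.98 without fresh replicate 1. A noncoding transcript, D930015M05Rik, overlaps 295 exonic bases of Cry2 on the opposite strand, and no label or header says whether counting used strand.

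The balance between the cryptochromes was lowest in the fresh libraries. The ratio of Cry1 to Cry2 FPKM was 3.34, 8.27 and 4.26 in melatonin-vitrified libraries, 4.86, 6.87 and 5.76 in vitrified libraries, and 3.02 and 1.80 in fresh libraries. Both fresh ratios were below all others, the nearest being melatonin-vitrified replicate 1. The exact permutation test (two-sided) gave p = 0.1 for vitrified against fresh, the smallest p that 3 against 2 libraries allow, 0.2 for melatonin-vitrified against fresh and 0.6 for melatonin-vitrified against vitrified.

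Nr1d1 (ENSMUSG00000020889, mm10 chr11:98767932-98775333, minus strand), which encodes REV-ERB alpha, was lower in both fresh libraries than in all others. It was at 2.52, 1.55 and 2.43 FPKM in melatonin-vitrified libraries, at 2.32, 2.29 and 2.37 FPKM in vitrified libraries, and at 0.857 and 1.18 FPKM in fresh libraries. The vitrified libraries lay within 0.1 FPKM of each other, and the melatonin-vitrified range enclosed them. The vitrified minus fresh difference was 0.73 ± 0.23 on the log2 scale (95% interval 0.22 to 1.23; limma adjusted p = 0.119), and the melatonin-vitrified minus fresh difference was 0.64 ± 0.23 (adjusted p = 0.197). Melatonin-vitrified and vitrified blastocysts differed by -0.09 ± 0.20 (95% interval -0.54 to 0.37; adjusted p = 0.872). The summed epiblast markers were likewise lower in both fresh libraries than in all others. Of these markers, only Nanog was so by itself, at 3.49 and 9.8 FPKM in fresh libraries against 28.3 to 54.6 FPKM. In fresh replicate 2, Pou5f1, Sox2 and Fgf4 (30.3, 2.8 and 3.2 FPKM) lay above some values of the other groups. The pattern was not particular to epiblast markers. Gata3 (trophectoderm), Sox17 (primitive endoderm) and Cd68 (blood) were also lower in both fresh libraries than in all others. Gata3 was at 67.3 and 78.2 FPKM in fresh libraries, against 104.3 to 164.8 FPKM. The other trophectoderm and primitive endoderm markers overlapped between fresh and other libraries. The part of these markers in the Nr1d1 difference was not tested. Without fresh replicate 1 the vitrified minus fresh difference was 0.61. With a pseudocount of 0.1 FPKM it was 1.13, and the melatonin-vitrified minus fresh difference was 1.0. After quantile normalization these 2 differences were 0.48 and 0.51. The Nr1d1 FPKM values stood for 63, 32 and 60 fragments in melatonin-vitrified, 57, 55 and 68 in vitrified, and 30 and 24 in fresh libraries. Thra, a thyroid hormone receptor gene on the opposite strand, shares 263 exonic bases with Nr1d1.

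Nr1d2 (ENSMUSG00000021775, mm10 chr14:18204054-18239127, minus strand), which encodes REV-ERB beta, did not separate the groups. It was at 1.08, 1.98 and 0.460 FPKM in melatonin-vitrified libraries, at 0.488, 0.349 and 1.02 FPKM in vitrified libraries, and at 0.531 and 0.677 FPKM in fresh libraries. Melatonin-vitrified replicates 1 and 2 were the highest of the 8 values, and replicate 3 was the second lowest. The melatonin-vitrified minus vitrified difference was 0.39 ± 0.29 on the log2 scale (95% interval -0.26 to 1.03; limma adjusted p = 0.553), and the vitrified minus fresh difference was -0.01 ± 0.32 (adjusted p = 0.993). The first of these was 0.13 without melatonin-vitrified replicate 2 and 0.64 without replicate 3. The ratio of Nr1d1 to Nr1d2 FPKM ran from 0.785 to 5.27 in melatonin-vitrified libraries and from 2.32 to 6.55 in vitrified libraries, and was 1.61 and 1.74 in fresh libraries (exact permutation p = 0.5 for melatonin-vitrified against vitrified, 0.7 for melatonin-vitrified against fresh and 0.2 for vitrified against fresh).

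Arntl (ENSMUSG00000055116, mm10 chr7:113207465-113314126, plus strand), the activator partner that REV-ERB represses, was moderately expressed in every library. It was at 8.10, 6.38 and 3.51 FPKM in melatonin-vitrified libraries, at 4.27, 7.73 and 7.89 FPKM in vitrified libraries, and at 3.89 and 5.51 FPKM in fresh libraries. The groups overlapped, and the lowest and the highest values were both melatonin-vitrified. The vitrified minus fresh difference was 0.40 ± 0.34 on the log2 scale (limma adjusted p = 0.549) and the melatonin-vitrified minus vitrified difference was -0.14 ± 0.31 (95% interval -0.83 to 0.54; adjusted p = 0.859). The first of these was 0.19 without fresh replicate 1 and 0.64 without vitrified replicate 1, and the second was 0.14 without melatonin-vitrified replicate 3. An antisense gene, Gm45355, shares 33 exonic bases with Arntl.

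Clock (ENSMUSG00000029238, mm10 chr5:76209868-76304792, minus strand), the other activator, had low FPKM in every library. It was at 0.365, 0.268 and 0.236 FPKM in melatonin-vitrified libraries, at 0.442, 0.551 and 0.542 FPKM in vitrified libraries, and at 0.0630 and 0.417 FPKM in fresh libraries. All 3 vitrified values lay above all others, and fresh replicate 1 was far below fresh replicate 2. The vitrified libraries were also the highest in genes above 0, in Malat1 (140 to 149 FPKM, against at most 94.3) and in summed primitive endoderm markers. Of the 4 markers, only Gata6 was so by itself (33.1 to 34.9 FPKM, against at most 26.0). Gata4 was highest in fresh replicate 2 (8.25 FPKM) and Sox17 in melatonin-vitrified replicate 2 (4.61 FPKM). Pdgfra was higher in fresh replicate 2 (3.79 FPKM) than in vitrified replicate 3 (3.34 FPKM). Outside that lineage, the epiblast marker Pou5f1 was also highest in vitrified libraries (36.98 to 48.15 FPKM, against at most 30.26). So was Cd68 of the blood markers (4.66 to 5.78 FPKM, against at most 3.90). The other epiblast markers and the trophectoderm markers overlapped between vitrified and other libraries. The part of these measures in the Clock values was not tested. Clock stayed under the filter. In a limma fit of all 19688 genes without the filter, the melatonin-vitrified minus vitrified difference was -0.23 ± 0.12 on the log2(FPKM + 1) scale (adjusted p = 0.518) and the vitrified minus fresh difference was 0.30 ± 0.14 (adjusted p = 0.366). The ratio of Arntl to Clock FPKM was 22.2, 23.9 and 14.9 in melatonin-vitrified, 9.66, 14.0 and 14.5 in vitrified, and 61.8 and 13.2 in fresh libraries. For melatonin-vitrified against vitrified, whose ratios did not overlap, the exact permutation p was 0.1, the smallest possible, while it was 0.8 for melatonin-vitrified against fresh and 0.3 for vitrified against fresh.

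The low Clock FPKM came with many fragments, at the long length that the steps in its values gave. Lengths were fitted to the steps in the FPKM values, and 7 of the 10 genes were kept. The rule for keeping a gene was that every library lay within 0.05 of a whole fragment. For Clock the largest deviation was 0.045. Clock had 58, 35 and 37 fragments in melatonin-vitrified libraries, 69, 84 and 99 in vitrified libraries, and 14 and 54 in fresh libraries. Over each group this made 130 fragments for Clock and 155 for Nr1d1 in melatonin-vitrified, 252 and 180 in vitrified, and 68 and 54 in fresh libraries. The steps gave a length of 22241 bases for Clock, 2.28 times its longest transcript in GENCODE M21 (9744 bases). This also exceeded all M21 exons of Clock joined (13727 bases), and the same held for all 7 genes. The authors' annotation is not known, and the source of the longer lengths was not tested. For Dbp the step length was 2.74 times the longest transcript, for Per3 2.12 times, for Per1 1.77 times, for Nr1d1 1.29 times, for Nr1d2 1.25 times and for Per2 1.01 times. The order of levels between genes therefore depends on these lengths, as does whether a gene passes the filter, while the ratio of a gene's FPKM between libraries does not.

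The Period genes, whose proteins pair with the cryptochromes as repressors, were close to the limit of detection. Per1 (ENSMUSG00000020893, mm10 chr11:69095217-69109960, plus strand) was at 0.0508, 0.206 and 0.0685 FPKM in melatonin-vitrified libraries, at 0.0689, 0.0529 and 0.221 FPKM in vitrified libraries, and at 0.0242 and 0.146 FPKM in fresh libraries, which stood for 2 to 15 fragments per library. Its groups overlapped throughout. Per3 (ENSMUSG00000028957, mm10 chr4:151003652-151044665, minus strand) was at 0.0771, 0.0402 and 0.0891 FPKM in melatonin-vitrified libraries, at 0.146, 0.149 and 0.115 FPKM in vitrified libraries, and at 0.0157 and 0.0812 FPKM in fresh libraries. All 3 vitrified values, at 12 or 13 fragments each, lay above all others, which held 2 to 8 fragments, and the same library measures as for Clock moved with them. Without the filter, the limma adjusted p of Per3 was 0.53 for melatonin-vitrified against vitrified and 0.374 for vitrified against fresh.

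Per2 (ENSMUSG00000055866, mm10 chr1:91415982-91459324, minus strand) was the only clock gene with libraries at 0. It was at 0.142, 0 and 0 FPKM in melatonin-vitrified libraries, at 0, 0.0740 and 0 FPKM in vitrified libraries, and at 0.220 and 0.146 FPKM in fresh libraries. Both fresh values lay above the other 6, with 13 and 5 fragments, against 6 in melatonin-vitrified replicate 1 and 3 in vitrified replicate 2. Fresh replicate 2 and melatonin-vitrified replicate 1 differed by less than 1 fragment is worth. A count of 0 allows up to 3 fragments, or 0.0863 and 0.0719 FPKM in melatonin-vitrified replicates 2 and 3 and 0.0724 and 0.0619 FPKM in vitrified replicates 1 and 3 (counting error only). Without the filter, the limma adjusted p of Per2 was 0.421 for melatonin-vitrified against fresh and 0.26 for vitrified against fresh.

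**Figure D2:**
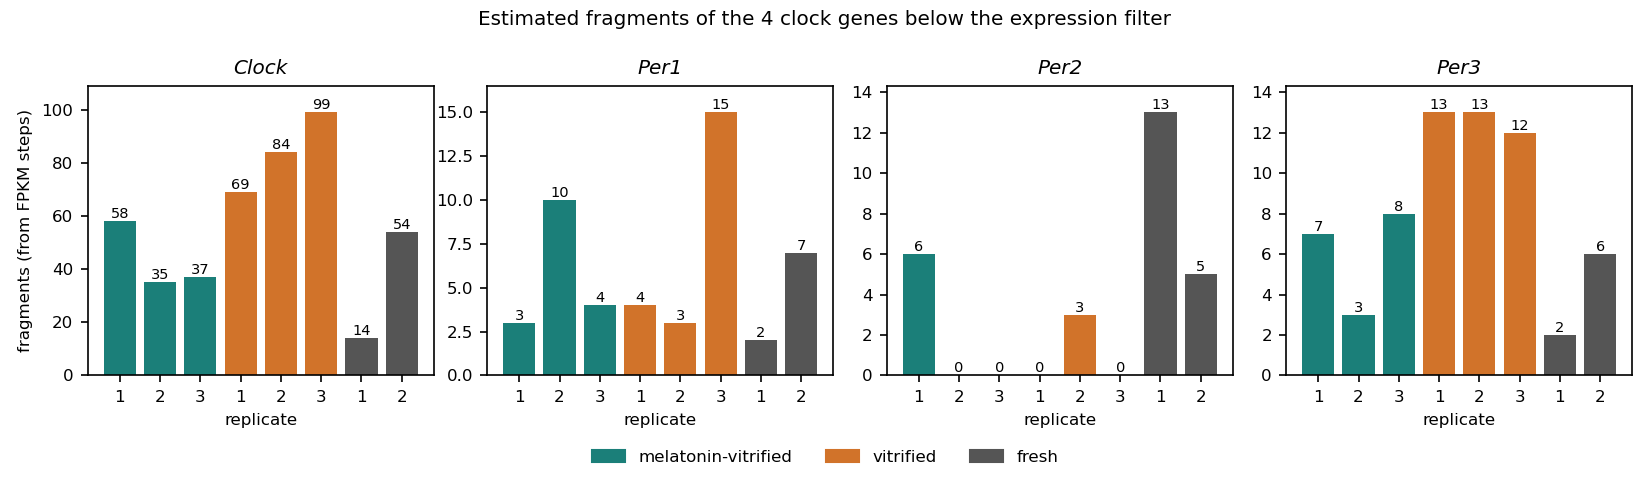
Fragments of Clock, Per1, Per2 and Per3 in each library (bars, replicate number below; axes differ between genes), recovered from the steps of the FPKM values. Clock holds 14 to 99 fragments, and the Period genes hold 0 to 15, with vitrified libraries highest for Clock and Per3 and fresh replicate 1 highest for Per2.

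Dbp (ENSMUSG00000059824, mm10 chr7:45705088-45710203, plus strand), the output factor that binds D-boxes, varied widely within each group. It was at 0.472, 1.15 and 0.281 FPKM in melatonin-vitrified libraries, at 0.764, 0.666 and 0.339 FPKM in vitrified libraries, and at 1.19 and 0.273 FPKM in fresh libraries. The 2 fresh libraries held the highest and the lowest of the 8 values, and all groups overlapped. The difference on the log2 scale was 0.01 ± 0.28 for melatonin-vitrified minus vitrified (95% interval -0.62 to 0.65; limma adjusted p = 0.985) and -0.08 ± 0.32 for vitrified minus fresh (adjusted p = 0.911). Sphk2, a sphingosine kinase gene on the opposite strand, shares 539 exonic bases with Dbp.

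Of the 10 genes, 6 passed the filter (Cry1, Arntl, Cry2, Nr1d1, Nr1d2 and Dbp), and their differences can be set beside those of all tested genes. For melatonin-vitrified against fresh, 2 of the 6 had an unadjusted limma p below 0.05 (Cry1 and Nr1d1). So did 1985 of all tested genes (18.5%). For vitrified against fresh it was 1 of the 6 (Nr1d1), against 2169 of all tested genes (20.2%). For melatonin-vitrified against vitrified it was none of the 6, against 1596 (14.8%). The median difference of the 6 genes was 0.20 for melatonin-vitrified minus vitrified, against -0.05 over all tested genes. It was 0.32 for melatonin-vitrified minus fresh, against 0.09, and 0.19 for vitrified minus fresh, against 0.14. These medians rested on single libraries and on scaling: with each library left out they ran from 0.0949 to 0.37 for melatonin-vitrified minus vitrified, from 0.21 to 0.60 for melatonin-vitrified minus fresh and from 0.15 to 0.41 for vitrified minus fresh. After quantile normalization they were 0.41, 0.17 and -0.0794 in the same order of comparisons.

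Counted by overlap alone, all 10 genes can be read. Melatonin-vitrified and vitrified values did not overlap for 3 of the 10 (Cry1 higher, Clock and Per3 lower in melatonin-vitrified). Of all 19688 genes, 18.3% did not overlap (1127 higher and 2468 lower in melatonin-vitrified). Melatonin-vitrified and fresh values did not overlap for 3 of 10 (Cry1 and Nr1d1 higher, Per2 lower in melatonin-vitrified), against 23.7% of all genes. Of those, 2781 were higher and 1892 lower in melatonin-vitrified. Vitrified and fresh values did not overlap for 4 of 10 (Nr1d1, Clock and Per3 higher, Per2 lower in vitrified), against 28.1% of all genes. Of those, 4126 were higher and 1403 lower in vitrified. Each count was within 2 genes of what the share over all genes gives for 10 genes.

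**Figure D3:**
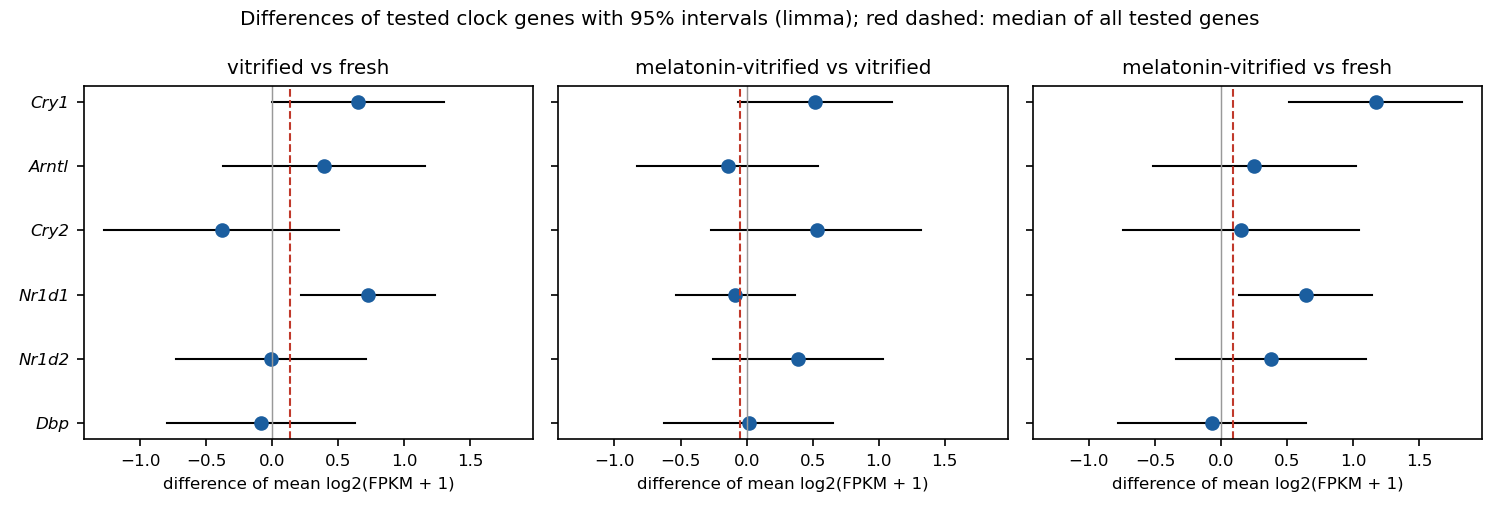
Differences of mean log2(FPKM + 1) for the 6 tested clock genes (points) with limma 95% intervals (lines) in 3 comparisons, with the median over all 10755 tested genes as a red dashed line. The intervals of Cry1 and Nr1d1 lie above 0 for melatonin-vitrified against fresh, that of Nr1d1 for vitrified against fresh, and none lies apart from 0 for melatonin-vitrified against vitrified.

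The clock genes differed in pattern across libraries. The highest Pearson r of log2(FPKM + 1) between 2 of the 6 tested genes over the 8 libraries was 0.66, for Cry1 and Nr1d1, and it was 0.21 over the 7 libraries without fresh replicate 1. Cry1 and Cry2 had an r of 0.49, and the lowest was -0.53 for Cry2 and Dbp. Among 5167 genes with a mean of at least 5 FPKM, those most like Cry1 were Txndc5 (r = 0.984) and Ccdc66 (0.979), and those most like Nr1d1 were Ndrg1 (0.968) and Spp1 (0.947). The nearest genes to Arntl were Pmaip1 (0.93) and Taf2 (0.903), to Cry2 Tnfaip1 (0.952) and Tpm3 (0.949), to Nr1d2 Nfs1 (0.926) and Gulp1 (0.919), and to Dbp Idi1 (0.914) and Rars2 (0.887). These r values describe 8 libraries that differ in group and in depth. The nearest genes are the highest of 5167 candidates and were not sought again without fresh replicate 1.

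The rest of the pathway was followed in a list of 26 other clock genes, of which 25 had a row and 17 passed the filter. None of the 17 passed limma in any comparison. Their median difference was 0.05 for melatonin-vitrified minus vitrified, 0.23 for melatonin-vitrified minus fresh and 0.17 for vitrified minus fresh. At an unadjusted limma p below 0.05, 3 were lower and none higher in melatonin-vitrified than in vitrified libraries. By the same measure 2 were higher and none lower in melatonin-vitrified than in fresh, and 4 were higher and 1 lower in vitrified than in fresh libraries. Over all tested genes the shares at that p, in either direction, were 14.8%, 18.5% and 20.2% for the same comparisons, so these counts are near the background.

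Per length, the highest levels in the list were those of a cofactor, a ubiquitin ligase gene and a kinase gene. Among kinases, Csnk1e, the casein kinase 1 epsilon that phosphorylates Period proteins, was at 23.1, 17.8 and 18.6 FPKM in melatonin-vitrified, 21.6, 12.7 and 15.7 FPKM in vitrified, and 15.0 and 17.1 FPKM in fresh libraries. Btrc, a ubiquitin ligase subunit that marks phosphorylated Period proteins for destruction, was at 50.2, 64.8 and 47.9 FPKM in melatonin-vitrified, 54.0, 40.6 and 46.0 FPKM in vitrified, and 26.8 and 38.3 FPKM in fresh libraries. Both fresh Btrc values were the lowest, and its melatonin-vitrified minus fresh difference was 0.73 ± 0.21 on the log2 scale (limma adjusted p = 0.158). Nono, an RNA-binding cofactor of Period complexes, ranged from 60.2 to 65.4 FPKM in melatonin-vitrified and from 64.5 to 87.9 FPKM in vitrified libraries, and was at 43.9 and 64.8 FPKM in fresh libraries.

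Other factors acting at the clock's DNA elements were uneven. Nfil3, a repressor at D-boxes, was at 7.74, 9.99 and 7.83 FPKM in melatonin-vitrified, 8.79, 5.40 and 13.1 FPKM in vitrified, and 9.04 and 7.21 FPKM in fresh libraries, with all groups overlapping. Bhlhe40, an E-box repressor also known as DEC1, was at 0.219, 5.05 and 3.39 FPKM in melatonin-vitrified, 7.26, 4.67 and 8.80 FPKM in vitrified, and 1.88 and 0.188 FPKM in fresh libraries. Both fresh values lay below all vitrified ones, with a vitrified minus fresh difference of 2.06 ± 0.63 (limma adjusted p = 0.116). Arntl2, a paralogue of Arntl, had group means of 0.36 FPKM in melatonin-vitrified and 0.772 FPKM in vitrified libraries, and stood at 0.398 and 0.199 FPKM in fresh libraries. Rora, an activator at ROR elements, was below 0.1 FPKM in every library. Nampt, a clock output that makes an NAD precursor, averaged 10.4 ± 2.18 FPKM in melatonin-vitrified and 10.8 ± 2.0 FPKM in vitrified libraries (SD, n = 3 each), and was at 11.9 and 10.9 FPKM in fresh libraries.

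A few other genes of the list are named here because of their values. Gsk3b, a kinase that phosphorylates several clock proteins, was at 4.21, 3.89 and 4.66 FPKM in melatonin-vitrified, 7.57, 8.82 and 7.42 FPKM in vitrified, and 4.29 and 3.57 FPKM in fresh libraries. The vitrified values lay above all others, with a melatonin-vitrified minus vitrified difference of -0.77 ± 0.17 (limma adjusted p = 0.121) and a vitrified minus fresh difference of 0.86 ± 0.19 (adjusted p = 0.0598). With limma library weights the first of these passed, at -0.71 with an adjusted p of 0.0416, in a fit where 233 genes (2.17%) passed. Ciart, a repressor of CLOCK and ARNTL also known as CHRONO, was at 2.78, 1.69 and 4.55 FPKM in melatonin-vitrified, 1.31, 2.17 and 1.24 FPKM in vitrified, and 3.45 and 7.47 FPKM in fresh libraries. Both fresh values were above all vitrified ones (difference -1.27 ± 0.37, limma adjusted p = 0.101). Prkaa1, a catalytic subunit of AMP-activated kinase, which promotes cryptochrome degradation, was at 13.0, 15.7 and 14.9 FPKM in melatonin-vitrified, 12.7, 11.2 and 12.4 FPKM in vitrified, and 8.62 and 8.27 FPKM in fresh libraries. Its melatonin-vitrified minus fresh difference was 0.71 ± 0.17 (limma adjusted p = 0.141), and the 3 groups did not overlap.

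**Figure D4:**
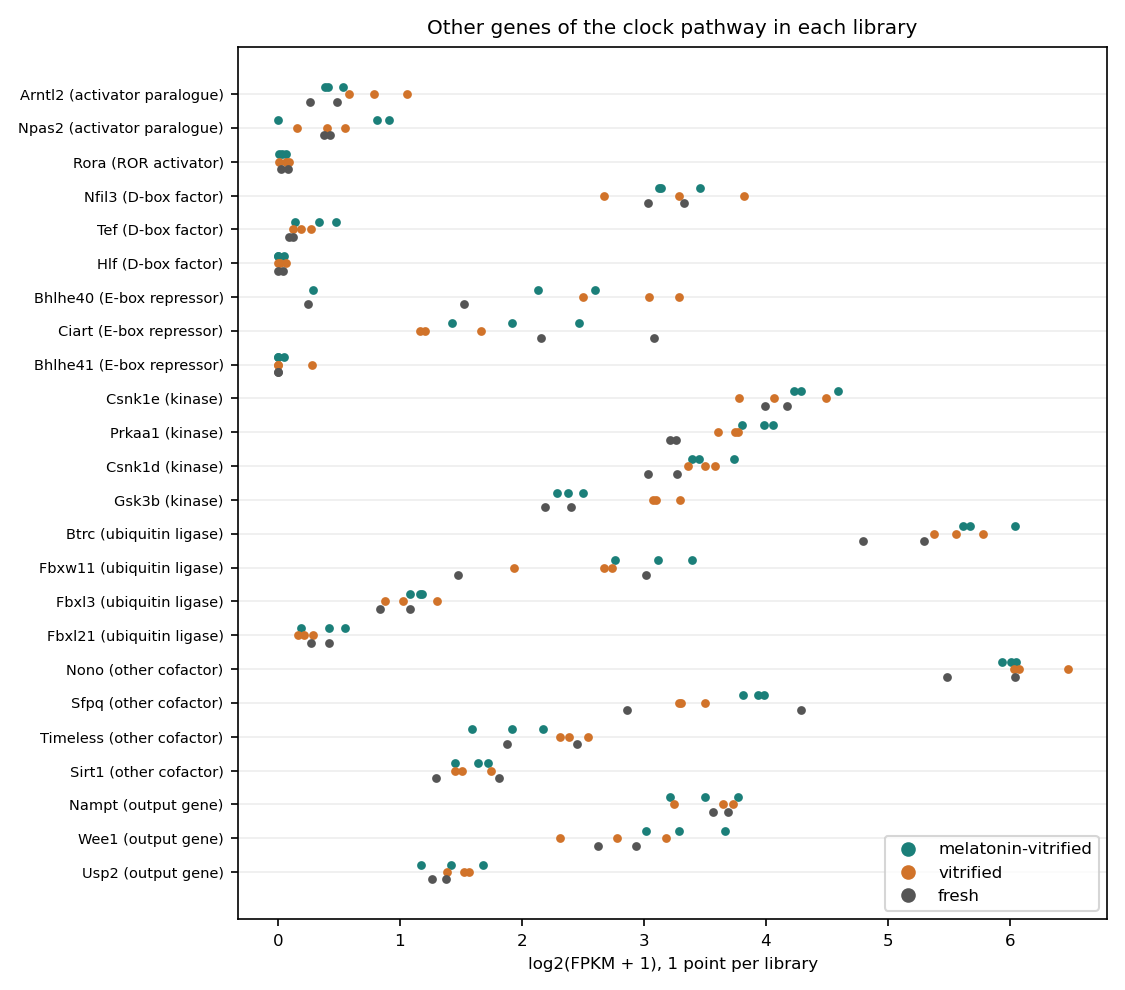
Log2(FPKM + 1) of other genes of the clock pathway, with 1 point per library of melatonin-vitrified, vitrified and fresh blastocysts (roles in brackets). Nono and Btrc are highest, Rora lies near 0, and the vitrified points of Gsk3b lie to the right of all its others.

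Of 6 genes of the melatonin pathway, 2 had values, and Mtnr1a and Mtnr1b, the genes of the melatonin receptors, were among the others and were not analysed here. Ddc, which encodes the decarboxylase that makes serotonin and dopamine, was at 2.46, 1.75 and 1.00 FPKM in melatonin-vitrified, 2.13, 7.51 and 3.30 FPKM in vitrified, and 2.00 and 1.73 FPKM in fresh libraries. Vitrified values lay above both fresh ones, while melatonin-vitrified values overlapped with both other groups. Its difference was -0.86 ± 0.36 for melatonin-vitrified minus vitrified (limma adjusted p = 0.307), -0.10 ± 0.40 for melatonin-vitrified minus fresh (adjusted p = 0.916) and 0.76 ± 0.40 for vitrified minus fresh (adjusted p = 0.315). Aanat, which encodes the enzyme of the timed step of melatonin synthesis, was listed at 0 in 7 of the 8 libraries and at 0.051 FPKM in fresh replicate 2.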

How the data were processed

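Whole mouse blastocysts were profiled by RNA-seq. The deposited values are FPKM per gene, made by the authors on genome build mm10, per the submitters' processing notes; no source names the aligner, the counter, the annotation or the strand setting. The members and gene lists were chosen with earlier results of these data known.

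Values were used as log2(FPKM + 1). Genes with at least 1 FPKM in at least 2 libraries (10755 of 19688) entered 1 limma 3.58.1 fit (R 4.3.3) of all 8 libraries by group, with trended moderation, two-sided tests and Benjamini-Hochberg adjustment over all tested genes, called below 0.05. Low FPKM values of 4956 genes with 1 transcript, multiplied by length, gave relative depth: 93.3% to 95.8% were within 0.1 of a whole fragment. Fragment counts were not used in the tests, and depth carries the error of those lengths. For the clock genes, the length itself was fitted, searching from about the joined M21 exons of the gene upwards. The length that put all libraries closest to whole fragments was taken. Clock genes not within 0.05 of whole fragments were left out. Alternatives covered the pseudocount (0.1), filters, scaling, trend, library weights, the groups fitted, replicate blocks and each library left out.

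All 10 members were named with a value in every library. Of the other lists, genes past limma (none), the best expressed pathway gene of each role and the melatonin receptors were named, with Gsk3b, Ciart, Prkaa1, Ddc and Aanat added after their values were seen, as were Fbxw11 and Sfpq in the closing part. GENCODE M21 gave lengths and overlaps, and RefSeq the promoters. The values of 1 gene of the pathway list are not reported here.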

Additional observations from a re-analysis of the deposited data

How the results depend on the processing

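Of 18 alternatives, the filters, the trend and the groups fitted leave a difference itself unchanged and can move only its adjusted p. The same holds for leaving out a library of the group not compared, and for the biosample number block in melatonin-vitrified against vitrified. The 6 tested clock genes were refitted under all 18. Their differences kept direction and side of the threshold in 289 of 312 refits, turned direction in 22 and newly passed in 1, which was Cry1 without fresh replicate 2; there a lone fresh library is assumed to vary like the other groups. No clock gene had passed in any comparison, and 0 to 1 passed for melatonin-vitrified against fresh when each library was left out. Of the partner genes, 0 to 2 passed in that comparison when each library was left out (Fbxw11 and Sfpq without fresh replicate 2, where 565 genes passed), and 1 passed for melatonin-vitrified against vitrified with library weights (Gsk3b, among 233 genes), while the number of all genes called ranged over the alternatives from 0 to 233 for melatonin-vitrified against vitrified (15 as reported), 0 to 565 for melatonin-vitrified against fresh (0) and 1 to 433 for vitrified against fresh (93).

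Nr1d2 in vitrified minus fresh was 0.15 with library weights, Dbp in melatonin-vitrified minus vitrified was -0.0302 with a pseudocount of 0.1, and Nr1d1 there was 0.0294 after quantile normalization. With each library left out in turn, melatonin-vitrified minus vitrified ran from -0.39 to 0.14 for Arntl, -0.20 to 0.17 for Dbp and -0.17 to 0.0625 for Nr1d1. Melatonin-vitrified minus fresh ran from -0.46 to 0.75 for Cry2 and -0.46 to 0.33 for Dbp, and vitrified minus fresh from -0.98 to 0.22 for Cry2, -0.47 to 0.31 for Dbp and -0.18 to 0.11 for Nr1d2. The differences that moved by over 1.5 times without turning stand beside their genes, except melatonin-vitrified minus fresh for Arntl (0.0326 to 0.54) and Nr1d2 (0.12 to 0.64). The cause of these turns was not tested.

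Same-numbered libraries had correlated deviations of -0.12 to 0.12, and not every library correlated best with its own number. The deviations were taken from group means, so those of the 2 fresh libraries mirror each other. With so few libraries these correlations cannot decide whether same-numbered libraries were paired, and the labels state no pairing. With the biosample number as a replicate block, 0 clock genes passed in any comparison and 1, 0 and 1 genes in all passed for melatonin-vitrified against vitrified, melatonin-vitrified against fresh and vitrified against fresh; Dbp became 0.071 in melatonin-vitrified minus fresh and 0.0565 in vitrified minus fresh, and Nr1d2 0.0362 in the last. With the title number as a replicate block, again 0 clock genes passed, the 3 counts of all genes were 0, 44 and 39, and vitrified minus fresh became 0.31 for Cry2 and 0.33 for Nr1d2. Depth limits the Period genes to 15 fragments or fewer per library, and groups of 2 and 3 libraries leave wide intervals.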
